A study of Caenorhabditis elegans with 53 samples.

Results

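The ALG-3/4 class of the deposited Caenorhabditis elegans small RNA tables lists 1399 genes whose 22G-RNAs the authors assigned to the ALG-3/4 pathway. The 244 genes described here (17.4% of the class) were those whose 22G-RNA row averaged at least 10 RPM (reads scaled to library size) over the 3 libraries of wild-type (N2) adults. The wild-type 22G-RNA level therefore chose the members, and it is given only as a description. The same genes were then followed in their 22G-RNA rows, their 26G-RNA rows and their mRNAs in all 53 samples of the series, 47 small RNA and 6 mRNA libraries.

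In the C. elegans germline, 26G-RNAs are primary small RNAs made with Dicer from mRNA templates, and the paired Argonautes ALG-3 and ALG-4 carry them during spermatogenesis. An Argonaute loaded in this way recruits an RNA-dependent RNA polymerase to the target mRNA, which makes the far more abundant secondary 22G-RNAs. Secondary 22G-RNAs are bound by other Argonautes: CSR-1, which licenses germline expression, and the WAGO proteins, which silence. RDE-1, the subject of the series, is the Argonaute that takes up primary siRNAs in RNA interference (RNAi), and ALG-1 and ALG-2 are the main microRNA Argonautes.

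The comparisons each had a tested strain, fraction, treatment or stage and its counterpart. They were 3 libraries of rde-1(ne219) mutants against 3 of wild type; 2 RDE-1 co-immunoprecipitates (co-IPs) against 2 inputs from animals with GFP and 3xFLAG on the endogenous rde-1 gene; 2 libraries of dcr-1 RNAi against 2 of the empty RNAi vector L4440 in a strain labelled with the same tagged RDE-1; and 2 libraries of mixed-stage wild-type embryos against 3 of adults. Tagged ALG-1 and tagged ALG-2 animals each had 2 co-IPs and 2 inputs on rde-1 RNAi, and as many on L4440. RNAi of nrfl-1 was combined with 3 co-IPs and 3 inputs of tagged RDE-1 and of tagged ALG-1. The mRNA libraries were 3 of rde-1(ram40), a different allele from the small RNA mutant, and 3 of wild type. All but the embryos were whole gravid adult hermaphrodites, so that fewer cells of a type and less RNA per cell cannot be told apart. The labels do not say that libraries of a group came from separate cultures, and p-values measure the spread between these libraries.

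Depth and labels were checked once for the whole series. The steps between low RPM values put 1 RPM at about 10.8 to 31.9 reads. Treatment with a pyrophosphohydrolase, which lets triphosphorylated 22G-RNAs be ligated, was named in the labels of 10 libraries: those of rde-1(ne219), of wild type, and of the RDE-1 co-IP and input without RNAi. The 3 adult libraries of the stage table matched the 3 wild-type libraries exactly in 25921 of 25921 rows, although the labels name the enzyme for one set and no treatment for the other. The rde-1 mRNA stood at 1.07, 0.864 and 0.834 normalized counts in rde-1(ram40), against 1506, 1619 and 1389 in wild type. The row of siRNAs against dcr-1 held 16972 and 16749 RPM on dcr-1 RNAi, against 56.9 and 71.2 RPM on L4440.

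In wild-type adults the members carried 10230 ± 443 RPM of 22G-RNAs (SD, n = 3), which was 86.1% of the class, and the 1155 genes below the threshold carried 1657 ± 60.3 RPM. Member levels ran between 10.1 and 611 RPM with a median of 20.5 RPM, 20 members reached 100 RPM, and the 10 highest made up 30.8% of the members' sum. The median of the genes below the threshold was 0.29 RPM, 814 of the class were under 1 RPM and 46 were at 0. RPM values are not divided by transcript length, so this order mixes density with length.

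The member with the most 22G-RNAs was C04G2.10, a gene with no assigned role here, at 604, 601 and 628 RPM in the wild-type libraries. Next came zfp-1, a chromatin protein with a zinc finger, at 496, 499 and 518 RPM, and frm-1, a protein with a membrane-linking FERM domain, at 373 ± 10.0 RPM (SD, n = 3). The kinesin klp-7, which takes apart microtubules, had 325, 379 and 374 RPM. Prg-1, the Piwi Argonaute that binds piRNAs, had 272, 289 and 286 RPM. The other members of the 10 highest were F13D12.5 (261 RPM), ecps-1, a homolog of a proteasome adaptor (251 RPM), hrde-1, the nuclear Argonaute of heritable silencing (181 RPM), the chromokinesin klp-19 (166 RPM) and parn-1, the exonuclease that trims piRNA ends (166 RPM). Replicates were close: the median coefficient of variation of a member in wild type was 6.42%. Just inside the threshold were tag-335 (10.2 RPM), hadb-1 (10.1 RPM) and ZK686.3 (10.1 RPM), and just outside it dlc-1 (9.97 RPM), plp-1 (9.96 RPM) and lnkn-1 (9.96 RPM).

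Few genes of the sperm marker list used here were members. Of 36 listed sperm genes 23 were in the class, and 1 of those 23 was a member: spe-41, a sperm membrane channel needed for fertilization, with 15.4, 13.8 and 14.9 RPM. None of the 22 msp (major sperm protein), 11 ssp, 9 nspd and 4 msd genes of the class was a member, and the highest of the msp genes had 0.58 RPM of 22G-RNAs. Of the listed 22G-RNA pathway genes, 3 were members: hrde-1 (181 RPM), csr-1 (112 RPM) and wago-1 (28.8 RPM), each an Argonaute that itself binds 22G-RNAs. The Argonaute genes alg-3 (0.37 RPM) and alg-4 (0.207 RPM) were in the class but far below the threshold. Of 4 muscle markers 1 was in the class, the body-wall myosin unc-54 (11.4 RPM), and it was a member. Of 15 oocyte and embryo markers 1 was in the class, oma-1 (4.08 RPM), and it was not a member. None of the 5 hypodermis and 9 intestine markers was in the class, so the threshold did not decide about them. The threshold was set in gravid adults. In the mRNA libraries of that stage 8 of the 36 listed sperm genes and 0 of 31 msp genes were abundant enough to be tested. Whether sperm genes would stay below the threshold at another stage was not tested. The markers do not describe members outside the lists, whose part in spermatogenesis was not tested. The group is called here, by its level, the high-22G genes of the ALG class.

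Grouped by what their names say they do, the members included 26 genes of the proteasome and ubiquitin system (613 RPM together), 22 of cell division and chromosomes (1487 RPM), 19 of chaperones and secretion (586 RPM), 18 of translation and splicing (608 RPM), 16 of energy metabolism (509 RPM) and 14 of germ granules and small RNA pathways (1234 RPM). These groups were drawn up after the membership was known. Several hold near-identical copies (the beta-tubulins tbb-1 and tbb-2, gpd-1 and gpd-4, cdc-48.1 and cdc-48.2, ubq-1). Reads can be split between such copies, so the levels of those genes are uncertain.

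A second annotation divided the members. The same 22G-RNA values stood again in the authors' CSR class for 145 members (59.4%), in the WAGO class for 37, in neither for 62 and in both for 0. Among the 1155 class genes below the threshold, 147 (12.7%) had a CSR row, 32 a WAGO row and 977 neither, with 1 gene counted in both classes. Cell division genes had a CSR row in 21 of 22 cases and proteasome and ubiquitin genes in 20 of 26. Among the top members klp-7, hrde-1 and klp-19 were CSR genes, and C04G2.10, frm-1 and parn-1 were WAGO genes.

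The members had few of the 26G-RNAs of the class in wild-type adults. Their 26G-RNA rows there summed to 2.82 ± 0.656 RPM, or 8.24% of the class's 26G-RNAs, against 31.5 ± 6.95 RPM in the genes below the threshold (SD, n = 3). A 26G-RNA value above 0 was listed for 77 of 244 members and for 556 of the 1155 others, and no member averaged 1 RPM. The members' share differed between groups of adults, at 6.44% in rde-1(ne219), 14.8% in RDE-1 input and 14.3% on L4440 in the dcr-1 experiment. In those L4440 animals 199 of 244 members and 992 of the 1155 others had a value above 0. The highest 26G-RNA rows belonged to genes that were not members: spch-1 (1.39 RPM), spch-2 (0.66 RPM) and spch-3 (0.63 RPM), which encode sperm chromatin proteins, and smz-1 (0.73 RPM), a sperm meiosis protein. Spch-1 had 3.43 RPM of 22G-RNAs, whereas C04G2.10, the leading member by 22G-RNAs, had 26G-RNAs listed at 0. Among the members Y57G11C.36 had the most, at 0.28, 0.41 and 0.06 RPM, a level of a few reads.

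**Figure D1:**
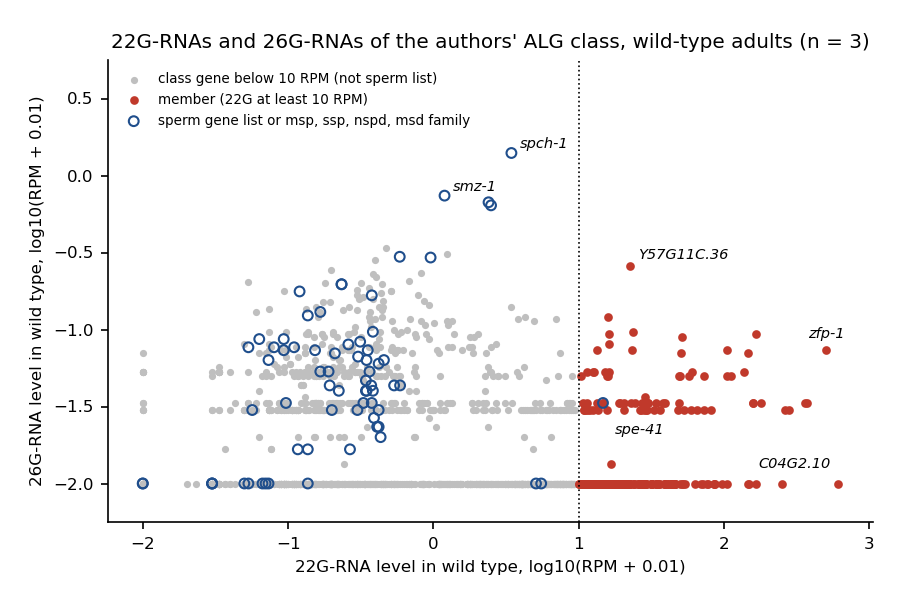
22G-RNA level (horizontal) against 26G-RNA level (vertical) in wild-type adults for the 1399 class genes, both as log10(RPM + 0.01), means of 3 libraries; red points are the 244 members, blue rings are genes of the sperm list or the sperm families, and the dotted line is the threshold of 10 RPM. The genes with the most 26G-RNAs (spch-1, smz-1) lie left of the line, and 1 blue ring, spe-41, lies to its right.

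The members' sums differed widely between the tables. Member 22G-RNAs summed to 12327 ± 38.8 RPM in rde-1(ne219) (SD, n = 3) and to 10350 ± 32.0 RPM in RDE-1 input (SD, n = 2). They summed to 6955 ± 165 RPM in L4440 animals of the dcr-1 experiment (SD, n = 2), whose labels name no pyrophosphohydrolase, and to 5029 ± 12.1 RPM in embryos (SD, n = 2). In the inputs of the ALG-1, ALG-2 and nrfl-1 tables, with no enzyme in the labels, they summed to between 129 and 637 RPM. The tables were normalized separately, so levels across them are set side by side only. The order of members by 22G-RNA level resembled that in wild type in rde-1(ne219) (Spearman's rho 0.932 over the 244 genes), in RDE-1 input (0.905), in L4440 animals of the dcr-1 experiment (0.875) and in embryos (0.799), with lower values in the inputs of the ALG-1, ALG-2 and nrfl-1 tables (0.593 to 0.722). These correlations are across genes, which are not independent replicates.

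**Figure D2:**
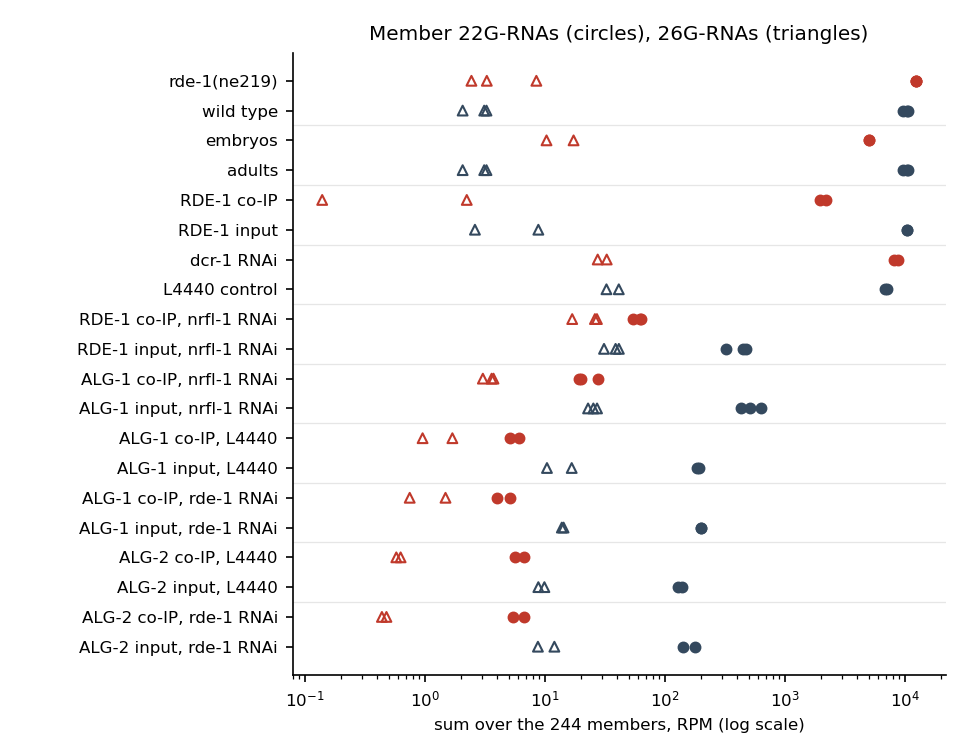
Sum over the 244 members of their 22G-RNA rows (circles) and 26G-RNA rows (triangles) in each small RNA library, in RPM on a log scale, with each comparison's groups on neighbouring lines. The 22G-RNA sums lie between 9719 and 10513 RPM in wild type and reach at most 637 RPM in the ALG-1, ALG-2 and nrfl-1 tables, while no 26G-RNA sum exceeds 41.4 RPM.

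In rde-1(ne219) mutants most high-22G genes had more 22G-RNAs than wild type. Counted in the limma fit over all 13650 rows, with p-values adjusted by the Benjamini-Hochberg method and a threshold of 0.05, 176 members were past the threshold and higher, against a background of 39.5% of all rows. In the other direction 19 members were past it and lower, against 12.9% of all rows; 52.4% of rows were past it either way. The wild-type libraries of this comparison chose the members, so these counts are a description and nothing is read from them. The median log2 difference was 0.34 among members and 0.18 among all rows. It was 0.34 as well in the class genes below the 10 RPM threshold, where 206 of 394 tested were higher and 18 lower. In the whole class 382 of 638 tested were higher and 37 lower. With each library centred on the median of its rows, 113 members were higher and 26 lower, beside 3369 higher and 2971 lower of all 13650 rows. MicroRNA rows held 26.2% to 29.3% of the row sum in rde-1(ne219) and 29.03% to 32.5% in wild type.

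The counts were then taken by second annotation. Of members with a CSR row, 123 of 145 were higher and 0 lower in rde-1(ne219). Of CSR rows outside the ALG class, 2182 of 3220 were higher and 24 lower. Of members with a WAGO row, 13 of 37 were higher and 13 lower, and WAGO rows outside the class gave 636 higher and 687 lower of 2035. Of members with neither row, 40 of 62 were higher and 6 lower. With libraries centred on their medians, 76 members with a CSR row were higher and 0 lower, 9 with a WAGO row were higher and 17 lower, and 28 with neither were higher and 9 lower. Outside the class, this centring gave 1321 CSR rows higher and 80 lower, and 459 WAGO rows higher and 971 lower. The centred counts came from a refit of the same model, and the difference between the annotations was not tested.

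Among single members, Y69A2AR.18 was highest above wild type, with 41.6, 34.3 and 33.7 RPM in rde-1(ne219), against 11.5, 12.2 and 10.5 RPM in wild type. The splicing factors rsp-3, rsp-6 and rsp-8, which are SR proteins, were higher too: rsp-3 had 164, 165 and 164 RPM in rde-1(ne219), against 94.2, 95.5 and 103 RPM in wild type. Nhr-229, a nuclear hormone receptor, had 36.5, 37.7 and 38.1 RPM in rde-1(ne219) and 18.5, 17.5 and 20.3 RPM in wild type. In none of these 3 genes did the groups overlap.

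The largest difference downwards was that of Y57G11C.36, the member with the most 26G-RNAs, whose 22G-RNAs had 8.69, 6.81 and 6.04 RPM in rde-1(ne219), against 26.3, 22.1 and 19.02 RPM in wild type. T14G10.8 had 6.48, 5.81 and 6.07 RPM in rde-1(ne219) and 18.4, 18.6 and 19.4 RPM in wild type. C28C12.1 averaged 6.55 RPM in rde-1(ne219) and 17.0 RPM in wild type. No library of the mutant reached the lowest wild-type library in any of these 3 genes. K02B7.3 and aagr-3, an acid alpha-glucosidase-related gene, were lower as well, by 0.99 and 0.67 on the log2 scale. Zfp-1, second in level, had 360, 358 and 337 RPM in rde-1(ne219), against 496, 499 and 518 RPM in wild type, whereas C04G2.10 overlapped, with 702, 630 and 608 RPM in rde-1(ne219) and 604, 601 and 628 RPM in wild type.

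The 26G-RNAs of the members did not pass the filter in this table, so they were not tested. They summed to 2.45, 3.29 and 8.51 RPM in rde-1(ne219) and to 3.27, 3.13 and 2.07 RPM in wild type, and the groups overlapped. In the genes below the threshold the sums were 29.2, 56.8 and 131 RPM in rde-1(ne219) and 39.2, 29.6 and 25.7 RPM in wild type, with replicate 3 of the mutant standing far above the others.

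On dcr-1 RNAi, in libraries that did not choose the members, 63 of 244 high-22G genes were called higher than on L4440, against a background of 17.8% of 7704 rows, and 1 was called lower, against 3.36% of rows (21.2% either way). By annotation, 30 of 145 with a CSR row were called higher, as were 13 of 37 with a WAGO row and 20 of 62 with neither. Outside the class 654 of 3160 CSR rows and 542 of 2023 WAGO rows were called higher, so the members with a CSR row were called about as often as other CSR rows. The median log2 difference was 0.29 among members and 0.21 among all rows. With each library centred on the median of its rows, 166 of all 7704 rows were called higher and 632 lower. Relative to the median of all rows, 10 members were called higher and 2 lower, and the count of 64 calls fell to 1 without dcr-1 RNAi replicate 1, to 1 without L4440 replicate 1, to 36 without dcr-1 RNAi replicate 2 and to 32 without L4440 replicate 2. With no filter on low values 0 members were called. MicroRNA rows held 32.9% and 34.7% of the row sum on dcr-1 RNAi and 44.9% and 43.2% on L4440. Nearly all of the 64 calls were lost when RPM was rescaled to rows that are not microRNAs, with the count given under processing below. The cause of this loss was not tested.

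Klp-7 had 216 and 177 RPM on dcr-1 RNAi, against 132 and 149 RPM on L4440 (log2 difference 0.48 ± 0.09 SE, limma adjusted p = 0.00358). Hrde-1 had 132 and 122 RPM on dcr-1 RNAi, against 89.6 and 98.8 RPM on L4440 (0.43 ± 0.09, limma adjusted p = 0.0042). For both genes each RNAi library was above each control library. The steepest rise was that of C29E4.12, with 10.5 and 8.67 RPM on dcr-1 RNAi, against 3.46 and 4.52 RPM on L4440 (1.09 ± 0.19, limma adjusted p = 0.0019). It was followed by fkb-1, a prolyl isomerase (0.79), crh-2, a CREB-like transcription factor (0.69), ubc-18, a ubiquitin-conjugating enzyme (0.65), and ubq-2, a ubiquitin fused to a ribosomal protein (0.63). Unc-54 was the member that fell, to 9.96 and 15.4 RPM on dcr-1 RNAi, against 22.2 and 19.8 RPM on L4440 (-0.72 ± 0.17, limma adjusted p = 0.00971). Csr-1 did not pass the threshold, with 84.6 and 71.6 RPM on dcr-1 RNAi and 61.6 and 71.7 RPM on L4440 (limma adjusted p = 0.118).

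The 26G-RNAs of the members summed to 27.6 and 32.8 RPM on dcr-1 RNAi and to 41.4 and 32.6 RPM on L4440, with overlap. Those of the class genes below the threshold summed to 118 and 152 RPM on dcr-1 RNAi and to 293 and 170 RPM on L4440, without overlap. Y57G11C.36 had the 1 member 26G-RNA row that could be tested, at 7.43 and 9.58 RPM on dcr-1 RNAi and 9.82 and 10.96 RPM on L4440, and it did not pass the threshold (-0.27 ± 0.17, limma adjusted p = 0.248).

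In RDE-1 co-IPs without RNAi, all 244 members had fewer 22G-RNAs on the RPM scale than the input, and all 244 were called lower, against a background of 87.2% of 9046 rows (6.94% were higher, 94.2% either way). Members summed to 2220 and 1952 RPM in the co-IPs, against 10373 and 10328 RPM in the inputs, and made up 83.8% of the co-IPs' class 22G-RNAs and 84.2% of the inputs'. The median log2 difference was -2.17 among members and -1.87 among all rows. MicroRNA rows held 62.1% to 74.4% of the row sum of the co-IPs and 29.4% to 33.0% of that of the inputs. Relative to the median of all rows, 2 members were called higher and 83 lower, beside 1399 higher and 1811 lower of all 9046 rows. Of CSR rows outside the class, 28 of 3148 were then called higher and 1265 lower, so the fall was not particular to the members.

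By annotation, the median log2 difference was -2.28 in members with a CSR row, -1.87 in those with a WAGO row and -2.01 in those with neither, beside -2.22 in CSR rows and -1.93 in WAGO rows outside the class. The difference between annotations was not tested. The 5 members with the largest falls all had a CSR row. Klp-19 had 22.0 and 20.9 RPM in the co-IPs, against 156 and 142 RPM in the inputs (-2.74 ± 0.12, limma adjusted p = 4.98e-05). The kinetochore gene knl-1 had 8.32 and 4.87 RPM in the co-IPs, against 53.3 and 52.1 RPM in the inputs (-2.86 ± 0.24, limma adjusted p = 0.0001). The checkpoint kinase gene bub-1 (-2.73), the RNA-binding protein gene rbm-26 (-2.69) and csr-1 (-2.65) fell alike. C04G2.10 had 162 and 155 RPM in the co-IPs, against 692 and 719 RPM in the inputs (-2.15 ± 0.12).

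**Figure D3:**
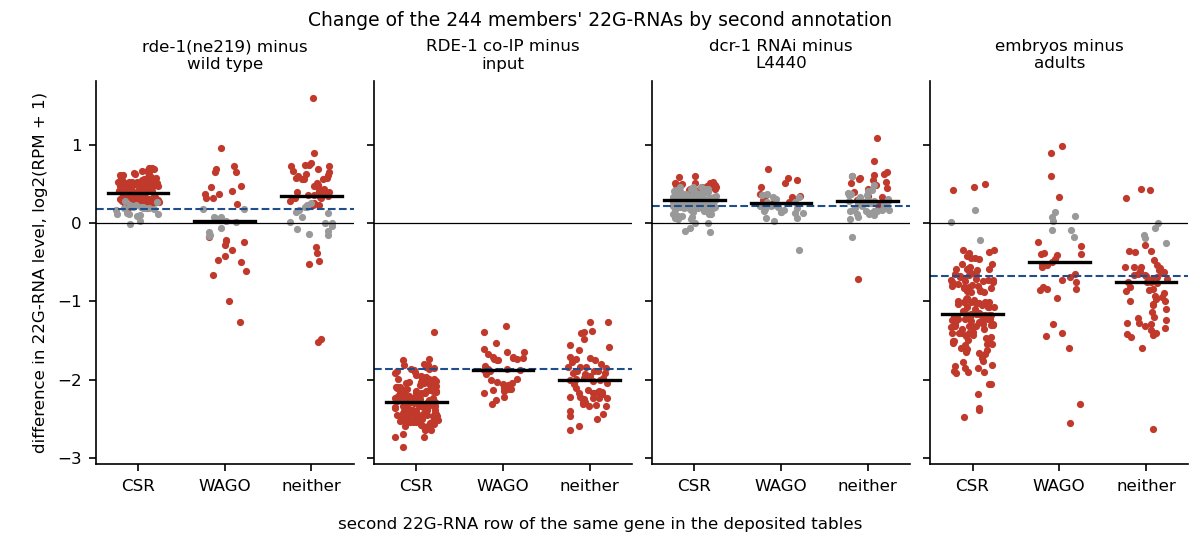
Difference in 22G-RNA level of each of the 244 members, in log2(RPM + 1), in 4 comparisons, with members placed by whether the gene has a second row in the CSR class, the WAGO class or neither. Red points were past the adjusted threshold, black bars are medians, and the dashed line is the median of all rows tested; for rde-1(ne219) and for embryos the points are a description, since wild-type adults chose the members. The median of members with a CSR row lies above that of members with a WAGO row in rde-1(ne219) and below it in the RDE-1 co-IP and in embryos, while the points of the groups overlap.

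In the ALG-1 and ALG-2 co-IPs the members' 22G-RNAs were close to absent on the RPM scale. All 244 together summed to 6.10 and 5.18 RPM in L4440 co-IPs of ALG-1, against 186 and 191 RPM in the inputs. On rde-1 RNAi they summed to 3.99 and 5.18 RPM in ALG-1 co-IPs, against 200.3 and 199 RPM in the inputs. ALG-2 co-IPs had 5.63 and 6.72 RPM on L4440, against 129 and 140 RPM in the inputs, and 6.73 and 5.42 RPM on rde-1 RNAi, against 142 and 178 RPM in the inputs. No co-IP came near its inputs in any of these 4 comparisons. MicroRNA rows held 99.4% to 99.9% of the row sum in these co-IPs and 84.8% to 87.9% in the inputs.

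The mean filter left 20 of 244 members in the ALG-1 table and 12 in the ALG-2 table, and these passed through their inputs, so their direction was fixed by the filter. All 20 were called lower with ALG-1, against 95.3% of all rows on L4440 (3.18% were higher, 98.5% either way) and 94.8% on rde-1 RNAi (3.67% higher, 98.5% either way). All 12 were called lower with ALG-2, against 94.5% on L4440 (4.14% higher, 98.7% either way) and 94.5% on rde-1 RNAi (4.23% higher, 98.7% either way). The median of all rows was itself -2.50 to -2.55. Relative to it 18 and 17 of 20 members in ALG-1 co-IPs and 11 and 10 of 12 in ALG-2 co-IPs were called higher. The direction therefore rests on the scale. With ALG-1, 1502 and 1546 of all 3486 rows were then called higher and 1165 and 1227 lower, on L4440 and rde-1 RNAi. With ALG-2, 1439 and 1422 of 3213 were higher and 1203 and 1216 lower. Of CSR rows outside the class, 126 and 118 of 177 were higher with ALG-1 (12 and 17 lower). With ALG-2 these were 106 and 98 of 130 (2 and 5 lower). Klp-7, the highest member there, had 0.61 and 0.21 RPM in the L4440 co-IPs of ALG-1, against 10.7 and 10.2 RPM in the inputs.

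No difference between rde-1 RNAi and L4440 was called in how the members' 22G-RNAs divided between co-IP and input. The difference between the enrichment on rde-1 RNAi and that on L4440 was called for 0 of 20 members with ALG-1, where 1 had an unadjusted p below 0.05, and for 0 of 12 with ALG-2, where 0 had one, by limma's interaction term, which called 12 and 10 rows in the whole tables. In the inputs, rde-1 RNAi against L4440 called 0 members in both strains, with an unadjusted p below 0.05 for 4 of 20 and 1 of 12. It called 10 of 3486 rows with ALG-1 and 28 of 3213 with ALG-2, so that 0 members is near the background.

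On nrfl-1 RNAi all 244 members together summed to 63.7, 54.7 and 61.8 RPM in RDE-1 co-IPs, against 321, 446 and 474 RPM in the inputs, and to 19.2, 20.2 and 27.5 RPM in ALG-1 co-IPs, against 429, 514 and 637 RPM in the inputs. Among 70 members that passed the filter with RDE-1, 69 were called lower, against 73.1% of 3197 rows (15.1% were higher, 88.2% either way), and all 84 that passed in the ALG-1 table were called lower, against 95.2% of 3794 rows (2.32% higher, 97.5% either way). The co-IPs of 8 members with RDE-1 and of 1 with ALG-1 reached a mean of 1 RPM, so nearly all of these members passed through their inputs and the filter fixed their direction. MicroRNA rows held 79.6% to 86.7% of the row sum in RDE-1 co-IPs and 96.0% to 97.4% in their inputs, and 99.3% to 99.5% in ALG-1 co-IPs and 93.01% to 93.8% in theirs. Relative to the median of all rows, 15 members were called lower and 1 higher in the RDE-1 table, and 16 lower and 35 higher in the ALG-1 table. Over all rows, 773 of 3197 were then called lower and 791 higher with RDE-1. With ALG-1, 1041 of 3794 were lower and 1414 higher. Prg-1 had 2.54, 2.41 and 1.70 RPM in RDE-1 co-IPs, against 13.7, 20.1 and 23.9 RPM in the inputs, and 0.66, 0.68 and 0.96 RPM in ALG-1 co-IPs, against 21.1, 25.1 and 30.7 RPM in the inputs. The member not called in the RDE-1 table was Y57G11C.36, with 1.26, 0.87 and 0.72 RPM in the co-IPs and 1.16, 1.66 and 1.10 RPM in the inputs (limma adjusted p = 0.296).

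Among the 26G-RNA rows, which the choice of members did not use, that of Y57G11C.36 was the highest of the high-22G genes in wild type. In RDE-1 co-IPs on nrfl-1 RNAi its 26G-RNAs had 7.88, 21.7 and 22.7 RPM, against 4.69, 7.73 and 7.46 RPM in the inputs (log2 difference 1.17 ± 0.42, limma adjusted p = 0.0213). All 3 co-IP libraries were above all 3 inputs. In the RDE-1 co-IPs without RNAi the row did not pass the filter and was not above input, at 0 and 0.84 RPM in the co-IPs and 1.64 and 0.27 RPM in the inputs, and the members' 26G-RNAs summed to 0.14 and 2.24 RPM in those co-IPs and 8.84 and 2.62 RPM in the inputs. The call on nrfl-1 RNAi was lost without co-IP replicate 2 (0.95, limma adjusted p = 0.0934), co-IP replicate 3 (0.92, limma adjusted p = 0.0668) or input replicate 1 (0.97, limma adjusted p = 0.0867). It was lost with no filter on low values (limma adjusted p = 0.0606), was 2.43 relative to the median of all rows, and turned to -1.10 when RPM was rescaled to rows that are not microRNAs. The other member row tested there was that of lin-61, a chromatin protein with MBT repeats, whose 26G-RNAs had 0.35, 0 and 0.05 RPM in the co-IPs, against 2.59, 1.63 and 1.51 RPM in the inputs. This row passed the filter through its inputs, so its direction was fixed, and it was at -0.09 relative to the median of all rows.

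In ALG-1 co-IPs on nrfl-1 RNAi the 26G-RNAs of Y57G11C.36 had 2.68, 2.54 and 2.57 RPM, against 10.6, 10.5 and 10.5 RPM in the inputs (-1.68 ± 0.20, limma adjusted p = 1.34e-07), but 0.42 relative to the median of all rows. On L4440 they differed by -2.04 with ALG-1 and -2.02 with ALG-2, and on rde-1 RNAi by -2.43 and -1.97, in rows that passed the filter through their inputs, and each of these values was above 0 relative to the median of all rows. Without Y57G11C.36 the members' 26G-RNAs summed to 6.01 ± 2.63 RPM in RDE-1 co-IPs on nrfl-1 RNAi and to 30.5 ± 5.92 RPM in the inputs (SD, n = 3 each).

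Embryos were the stage in which 26G-RNAs of the class were nearly all from members. Y57G11C.36 had 14.99 and 7.73 RPM of 26G-RNAs in embryos, against 0.28, 0.41 and 0.06 RPM in adults, without overlap (log2 difference 3.25 ± 0.27 SE). The row passed the filter through the embryos alone, which fixed its direction, so no test is given. Other gravid adults had this row at 9.82 and 10.96 RPM (L4440, dcr-1 experiment) and 4.31 and 4.5 RPM (ALG-2 inputs on L4440). It was lower in RDE-1 inputs without RNAi (1.64 and 0.27 RPM) and in rde-1(ne219) (0, 0.05 and 0.69 RPM). These tables were normalized separately. Since the enzyme labels of the adult libraries conflict, stage and enzyme treatment cannot be told apart for this row. Member 26G-RNAs made up 89.1% of the class's 26G-RNAs in embryos and 8.24% in the wild-type adults. Without this gene the members summed to 2.50 ± 0.163 RPM in embryos (SD, n = 2) and 2.57 ± 0.506 RPM in adults (SD, n = 3), while the class genes below the threshold summed to 1.66 ± 0.346 RPM in embryos and 31.5 ± 6.95 RPM in adults. The authors' ERGO class, the 26G-RNAs of the Argonaute ERGO-1 that acts in oocytes and embryos, summed to 6668 and 4933 RPM in embryos, against 105, 109 and 78.8 RPM in adults. Whether the 26G-RNAs of Y57G11C.36 belong with that class was not tested.

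**Figure D4:**
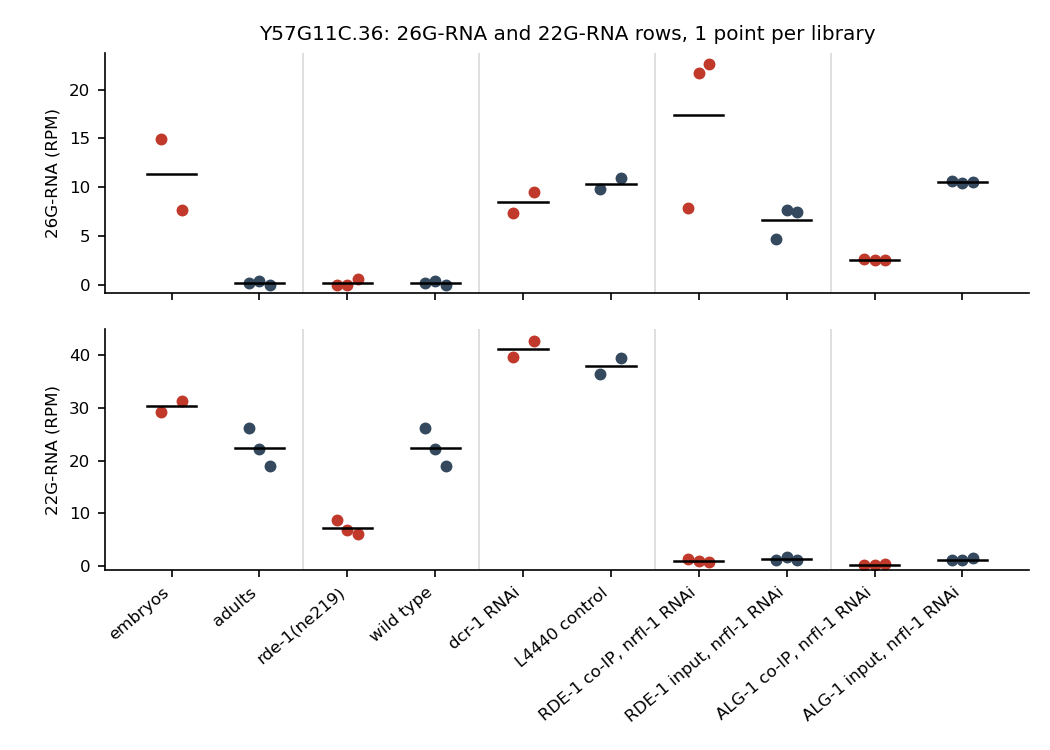
26G-RNA (upper) and 22G-RNA (lower) levels of Y57G11C.36 in RPM in 10 groups, 1 point per library, with the group mean as a bar and compared groups side by side. The 26G-RNAs are higher in embryos than in the wild-type adults compared with them. Other groups of adults, such as L4440 controls (9.82 and 10.96 RPM), lie near the embryos. In RDE-1 co-IPs on nrfl-1 RNAi they lie above the inputs, with 1 co-IP library at 7.88 RPM and the others at 21.7 and 22.7 RPM.

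The 22G-RNAs of the members went the other way in embryos. Of 244 members 219 were past the threshold and lower in embryos, against 65.7% of 9554 rows, and 10 were higher, against 12% of rows (77.7% either way). Of CSR rows outside the ALG class, 2762 of 3190 were lower and 40 higher. Of the class genes below the 10 RPM threshold, 172 of 330 tested were lower and 42 higher. The adults are the libraries that chose the members, so these counts too are a description. The members summed to 5038 and 5021 RPM in embryos, against 9719, 10513 and 10458 RPM in adults, and made up 78.3% of the class's 22G-RNAs in embryos and 86.1% in adults. The median log2 difference was -0.96 among members and -0.67 among all rows. Relative to the median of all rows 121 members were lower and 39 higher, beside 2834 lower and 2828 higher of all 9554 rows. Of CSR rows outside the class, 1287 of 3190 were then lower and 414 higher. Since the labels of the adult libraries conflict, stage and enzyme treatment cannot be told apart.

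By role group, against the 65.7% of all rows, the members past the threshold and lower in embryos were 22 of 22 in cell division, 26 of 26 in the proteasome and ubiquitin system, 18 of 18 in translation and splicing, 13 of 14 in germ granules and small RNA pathways, 17 of 19 in chaperones and secretion (2 were higher) and 13 of 16 in energy metabolism. CSR rows outside the ALG class were lower in 2762 of 3190 cases, so shares this high were common among CSR genes. Nothing is read from these counts, for the reason given. Csr-1 had 29.5 and 28.3 RPM in embryos, against 107, 116 and 114 RPM in adults. Klp-7 averaged 85.9 RPM in embryos and 359 RPM in adults. The lowest embryo levels relative to adults were in unc-54 (0.94 and 1.05 RPM in embryos, against 11.3, 10.4 and 12.5 RPM in adults) and in pyk-1, a pyruvate kinase (25.6 and 23.2 RPM in embryos, against 147, 150 and 147 RPM in adults). The splicing factor rsp-1, the chromatin gene hmg-12 and the beta-tubulin tbb-2 followed.

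The 10 members that were higher in embryos included WAGO genes: clec-119, a C-type lectin gene, had 26.8 and 29.2 RPM in embryos, against 14.4, 14.2 and 12.3 RPM in adults. K02B7.3 had 50.0 and 49.5 RPM in embryos, against 26.9, 26.2 and 25.6 RPM in adults, and crh-2 had 22.2 and 23.2 RPM in embryos, against 14.2, 15.6 and 14.03 RPM in adults. Among CSR genes the chaperone gene hsp-90 and vig-1, which encodes a component of the RNA-induced silencing complex, were higher, by 0.50 and 0.47 on the log2 scale. Y57G11C.36 itself had 29.3 and 31.4 RPM of 22G-RNAs in embryos, against 26.3, 22.1 and 19.02 RPM in adults. Zfp-1 replaced C04G2.10 as the highest member in embryos, with 355 and 314 RPM of 22G-RNAs, beside 216 and 190 RPM for C04G2.10.

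The mRNAs of most high-22G genes were present in adults, and those tested did not differ detectably in rde-1(ram40). Of 244 members 226 (92.6%) passed the mean filter of 10 normalized counts, against 26.6% of the class genes below the threshold and 37.6% of all genes. Of those 226, 0 were called higher and 0 lower by limma, against 0.0794% and 0.282% of 11331 genes (0.362% either way), and 7 had an unadjusted p under 0.05. The median log2 difference was 0.04 among members and 0.02 among all genes. By annotation, 145 of 145 members with a CSR row were tested, 59 of 62 with neither row and 22 of 37 with a WAGO row. Most untested members were thus WAGO genes, whose mRNAs were below the filter.

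The largest mRNA differences did not pass the adjustment. C04G2.10, first in 22G-RNAs, had 43.9, 29.2 and 47.5 normalized counts in rde-1(ram40), against 19.3, 22.6 and 24.9 in wild type (0.80 ± 0.26, limma adjusted p = 0.478). T08B2.11 had 63.2, 46.1 and 45.3 in rde-1(ram40), against 89.7, 98.8 and 78.6 in wild type (-0.79 ± 0.20, limma adjusted p = 0.243), and C55C3.3 had 22.5, 20.9 and 12.6, against 30.7, 34.8 and 27.8 in wild type (-0.74 ± 0.29, limma adjusted p = 0.592). Unc-54 had 1609, 2620 and 1908 in rde-1(ram40), against 3888, 2858 and 2680 in wild type (-0.63 ± 0.18, limma adjusted p = 0.335). In these 4 genes, picked for their size, the groups did not overlap.

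The most abundant member mRNAs were those of the elongation factor gene eef-2 (48146 normalized counts in rde-1(ram40) and 46998 in wild type), hsp-90 (42544 in rde-1(ram40) and 40743 in wild type), the elongation factor gene eef-1A.1 (37594 in rde-1(ram40) and 38242 in wild type), the heat shock protein gene hsp-1 (31485 in rde-1(ram40) and 30439 in wild type) and ubq-1 (22868 in rde-1(ram40) and 22221 in wild type). Each of these 5 overlapped between groups. Normalized counts are not divided by length. Hrde-1 had 11117, 9628 and 9861 in rde-1(ram40) and 10608, 10961 and 8370 in wild type, and Y57G11C.36 had 257, 203 and 236 in rde-1(ram40) and 199, 239 and 160 in wild type. For none of the 11 matched genes of the 22G-RNA pathway list, the 8 tested of the 26G-RNA list or the 8 tested sperm genes was a difference called. No muscle (4 tested), intestine (9), hypodermis (3) or oocyte and embryo (15) marker was called either. The 4 muscle markers, unc-54 among them, had a median log2 difference of -0.52. They summed to 3980 to 5760 normalized counts in rde-1(ram40) and 6180 to 8115 in wild type. The medians of the intestine (-0.33) and hypodermis (-0.33) markers were below 0 as well, and that of the oocyte and embryo markers was 0.05. The part of the muscle markers in the unc-54 value was not tested. Alg-3 stood at 3.97 ± 0.45 normalized counts in rde-1(ram40) and 4.20 ± 1.66 in wild type, and alg-4 at 2.03 ± 0.37 in rde-1(ram40) and 2.81 ± 3.99 in wild type (SD, n = 3 each), below the filter.

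**Figure D5:**
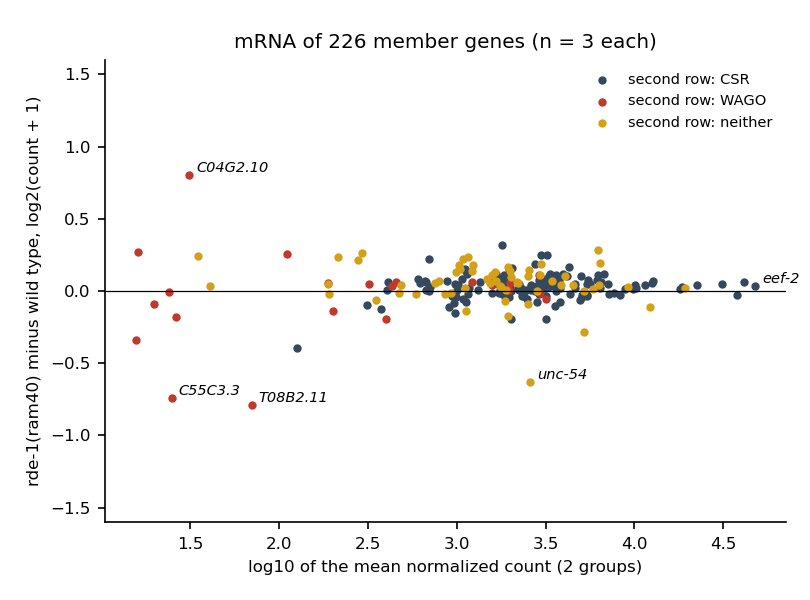
Difference in mRNA level between rde-1(ram40) and wild type, in log2(normalized count + 1), against the log10 of the mean normalized count, for the 226 members that passed the filter (n = 3 each), coloured by the second annotation of the gene. The points lie around 0 with the widest spread at low counts, and C04G2.10 (0.80) and T08B2.11 (-0.79) are the extremes.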

How the data were processed

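Small RNA values were RPM, which the authors computed (tinyRNA, then their own Python code) and deposited in tables of gene rows within small RNA classes, per the labels' protocols. The mRNA table held signal values, normalized counts that the authors deposited after fastp, STAR, RSEM and DESeq2, per the submitters' processing notes; versions and genome build are not given in the sources used here. The RPM denominator is not stated, and the rows of a library summed to 379889 to 982594 RPM. MRNA totals were 8.20e+06 to 9.00e+06 normalized counts.

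Members were the genes with an ALG target 22G row of at least 10 RPM in wild type. Members and gene lists (26G and 22G pathways, sperm genes and families, oocyte and embryo, intestine, muscle, hypodermis) were chosen with earlier results of these data known. Of the 22G pathway list 11 of 12 genes matched. The fits used limma (version 3.58.1, R 4.3.3; eBayes with trend, two-sided) on log2(RPM + 1) over rows with a mean of at least 1 RPM, or for mRNA log2(normalized count + 1) where a gene averaged 10 or more, with Benjamini-Hochberg adjustment over all rows and a threshold of 0.05; these differences understate changes of low rows. The 4 groups of the ALG-1 or ALG-2 table with L4440 and rde-1 RNAi were fitted together. The fits were checked on simulated data. Of RPM values up to 2, between 72.9% and 93.3% lay within 0.0051 RPM of a whole multiple of the smallest step, too few for count tests. In 3 columns the name gave only the group. Column names of the dcr-1 table also name RDE-4 and those of the ALG-1 nrfl-1 table an HA tag, which the labels do not, so those strains are uncertain. Genes named in the text were the 10 highest members, the 3 on each side of the threshold, up to 5 per direction with the largest differences past the threshold and without overlap in each comparison, genes with at least 1 RPM of 26G-RNAs, 5 mRNAs of highest level, and members in the lists; others were chosen after their values were seen. Alternatives were another pseudocount (0.1, or 10 for mRNA), no filter, centring on library medians, rescaling to rows other than microRNAs, leaving out each library, a replicate block, and 1 row per gene.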

Additional observations from a re-analysis of the deposited data

Results flagged for a closer look

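The 26G-RNAs of Y57G11C.36 had differences of opposite sign in the co-IPs of tagged RDE-1 and of tagged ALG-1, both on nrfl-1 RNAi. The log2 difference of co-IP minus input was 1.17 with RDE-1, where all 3 co-IP libraries were above all 3 inputs, and -1.68 with ALG-1, where all 3 co-IP libraries were below all 3 inputs. The difference between the strains was not tested, since the tables were normalized separately. In the RDE-1 co-IPs without RNAi the row was not above input, at 0 and 0.84 RPM in the co-IPs and 1.64 and 0.27 RPM in the inputs, and was not tested. Relative to the median of all rows the values were 2.43 with RDE-1 and 0.42 with ALG-1, and rescaled to rows that are not microRNAs they were -1.10 with RDE-1 and 1.27 with ALG-1.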

How the results depend on the processing

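Counts of members called moved most with the scale and the filter. Centred on library medians, 85 members were called in RDE-1 co-IPs, 12 on dcr-1 RNAi and 16 in RDE-1 co-IPs on nrfl-1 RNAi. The counts over all rows under this centring stand beside the members' counts in the Results. Under this centring most calls turned to higher in ALG-1 co-IPs on L4440 (18 called, 18 higher) and on rde-1 RNAi (18 called, 17 higher and 1 lower) and in ALG-2 co-IPs (11 called on L4440 and 10 on rde-1 RNAi, all higher). In ALG-1 co-IPs on nrfl-1 RNAi they became mixed (51 called, 35 higher and 16 lower). Rescaled to rows that are not microRNAs, 4 were called on dcr-1 RNAi, 62 (L4440) and 79 (rde-1 RNAi) with ALG-1, 44 (L4440) and 35 (rde-1 RNAi) with ALG-2, and 234 in RDE-1 co-IPs on nrfl-1 RNAi. With no filter on low values the counts were 0 on dcr-1 RNAi, 191 (L4440) and 188 (rde-1 RNAi) with ALG-1, 163 (L4440) and 176 (rde-1 RNAi) with ALG-2, and, on nrfl-1 RNAi, 197 with RDE-1 and 229 with ALG-1; more members were tested there. The cause of the other changes was not tested.

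Reversed single values under centring were, in ALG-1 co-IPs on L4440, ecps-1 0.38, scc-1 0.54, hmg-12 0.59 and the 26G-RNAs of Y57G11C.36 0.65; on rde-1 RNAi, scc-1 0.23, ecps-1 0.32, hmg-12 0.45 and Y57G11C.36 0.26; and on nrfl-1 RNAi Y57G11C.36 0.42. In ALG-2 co-IPs on L4440 they were klp-7 0.13, prg-1 0.38, scc-1 0.76, ecps-1 0.76, hmg-12 0.82 and Y57G11C.36 0.68, and on rde-1 RNAi prg-1 0.24, hmg-12 0.54, F13D12.5 0.74, scc-1 0.75 and Y57G11C.36 0.72. Rescaling reversed klp-7 (0.040), ecps-1 (0.31) and Y57G11C.36 (1.99) with ALG-1 on L4440, and klp-7 (1.42), prg-1 (1.08), ecps-1 (1.49), hmg-12 (0.74) and Y57G11C.36 (1.75) in ALG-2 co-IPs on L4440. It also reversed scc-1 (0.16) and Y57G11C.36 (1.05) in ALG-2 co-IPs on rde-1 RNAi, and Y57G11C.36 on nrfl-1 RNAi with RDE-1 (-1.10) and with ALG-1 (1.27).

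Leaving out 1 library at a time gave 165 to 201 calls in rde-1(ne219), 244 to 244 in RDE-1 co-IPs, 1 to 36 on dcr-1 RNAi, 16 to 23 (L4440) and 17 to 23 (rde-1 RNAi) in ALG-1 co-IPs, 11 to 17 and 10 to 17 in ALG-2 co-IPs, 52 to 80 and 56 to 96 on nrfl-1 RNAi with RDE-1 and ALG-1, 216 to 227 in embryos and 0 to 0 in the mRNAs. A lone remaining library was assumed to vary like the other group.

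Same-numbered libraries deviated together weakly or not at all (correlations of -0.25 to 0.32), so the numbers were not taken to pair samples. The highest values were 0.32 for replicate 2 of embryos and adults (-0.05 for replicate 1) and 0.22 and 0.20 for mRNA replicates 1 and 3 (-0.16 for replicate 2). A weak pairing in those comparisons was left out of the main fits. With a replicate block the counts were 191 in rde-1(ne219), 244 in RDE-1 co-IPs, 20 and 20 in ALG-1 and 12 and 12 in ALG-2 co-IPs, 84 in ALG-1 co-IPs on nrfl-1 RNAi, 220 in embryos and 0 in the mRNAs, where the block called 89 genes of the whole table against 41 without it. Crossing the numbers of the ALG-2 libraries on L4440, an alternative chosen after seeing the data, gave 12. No paired analysis was possible because the groups shared only 1 number for dcr-1 RNAi, and because the RDE-1 inputs on nrfl-1 RNAi were matched to their group only.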
